A study of Mus musculus with 9 samples.

Results

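Splenic B cells that bound the hapten nitrophenyl (NP) 4 days after immunization were compared with naive B cells of immunized mice, to ask which functions, pathways and gene families differ in antigen-specific B cells before plasma cell differentiation. The comparison took 6 of the 9 libraries of the series, 3 per group, and every gene with at least 1 TPM, a share of the library's transcripts corrected for transcript length, in at least 3 of the 6. These were 12176 of the 29995 genes in the table from which the authors had removed immunoglobulin genes. Mice of both groups were B6.Blimp1+/GFP animals, in which one Prdm1 allele reports Blimp1 through green fluorescent protein (GFP). They were 12 weeks old and had received 50 µg of NP coupled to lipopolysaccharide (NP-LPS) intraperitoneally. Naive B cells were sorted from spleen as B220+, IgD high and NP-, and NP-specific B cells as B220+, IgD-, NP+, CD138- and GFP-. Both gates left out cells with CD4, CD8a, Ter-119 or F4-80. The 3 NP-specific plasma cell libraries of the series served only to estimate the spread of each gene. The gates differ in NP binding and in IgD at once, and the naive cells had also been exposed to LPS in the animal, so antigen, LPS and the B cell subset that bound NP cannot be told apart here.

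A naive follicular B cell circulates between blood and lymphoid follicles, guided by receptors for chemokines and lipids, and divides rarely. When antigen engages its receptor, or LPS engages Toll-like receptor 4, it enters the cell cycle and changes the receptors that position it in the spleen. Marginal zone and B-1 B cells, which lie near the blood sinuses of the spleen or in body cavities, respond readily to LPS-linked antigens and supply much of the early antibody. Some activated cells become plasma cells under Blimp1, while others enter germinal centres.

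The naive libraries held between 28490300 and 31719400 estimated reads and the NP-specific libraries between 34918400 and 38602300, and more genes were detected in naive (24196 to 25169) than in NP-specific libraries (18372 to 22176). The first principal component of the tested genes carried 70.1% of the variance and separated the groups. NP-specific replicate 2 stood apart, at 36.2 on this axis against 60.1 and 58.2 for replicates 1 and 3 and -53.6 to -49.8 for the naive libraries. On the second component, with 11.6% of the variance, NP-specific replicates 1 and 3 lay far apart, at -36.0 and 37.2. Replicate 2 was at -0.768 there, and the naive libraries at -1.88 to 2.44. NP-specific replicate 2 alone held neutrophil transcripts, with a summed level of 49.9 TPM over 6 markers against 0.502 to 1.79 TPM in the other 5 libraries. In the full table, Ighd, the IgD heavy chain on which both gates were set, was at 2825, 2904 and 2801 TPM in the naive and at 40.5, 42.5 and 37.8 TPM in the NP-specific libraries. The 8 B cell markers summed to 8944 to 9266 TPM in naive and 6926 to 7402 TPM in NP-specific libraries, and none of them passed the test described next. Sdc1, which encodes the gated protein CD138, fell by 2.52 on the log2 scale, and Prdm1 went from 2.50 ± 0.659 to 4.76 ± 2.19 TPM and did not pass (adjusted p = 0.14).

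A gene is said to have risen or fallen where its change was over 2-fold with a Benjamini-Hochberg adjusted p under 0.05, by limma over all 12176 genes. Changes are log2 ratios of NP-specific over naive B cells on the log2(TPM + 0.5) scale, given with their standard error (SE), so changes of genes near 0 TPM are understated. TPM are given as mean ± SD with n = 3. By this rule 2352 genes differed, 19.3% of those tested: 1037 rose (8.52%) and 1315 fell (10.8%), and the median change of all tested genes was -0.15. Under median-of-ratios scaling the split turned to 1231 higher and 1033 lower, so that 54.4% of the genes that differed were higher against 44.1% here, and the median of all genes moved by 0.10. Rises were the larger changes: 333 genes rose and 170 fell by over 4-fold, and 35 rose and 6 fell by over 16-fold. At an adjusted p under 0.05 whatever the fold, 45.2% of the tested genes differed, 19.9% of them higher and 25.3% lower as shares of all tested. For 57.6% of the tested genes the libraries of both groups did not overlap, with the NP-specific ones above in 24.7% and below in 32.9%. Which libraries came from the same mouse is not stated, so the p-values measure the spread between these libraries. Among 40 lists of genes by function, those of cell division rose most often and that of follicular B cells fell most often.

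**Figure D1:**
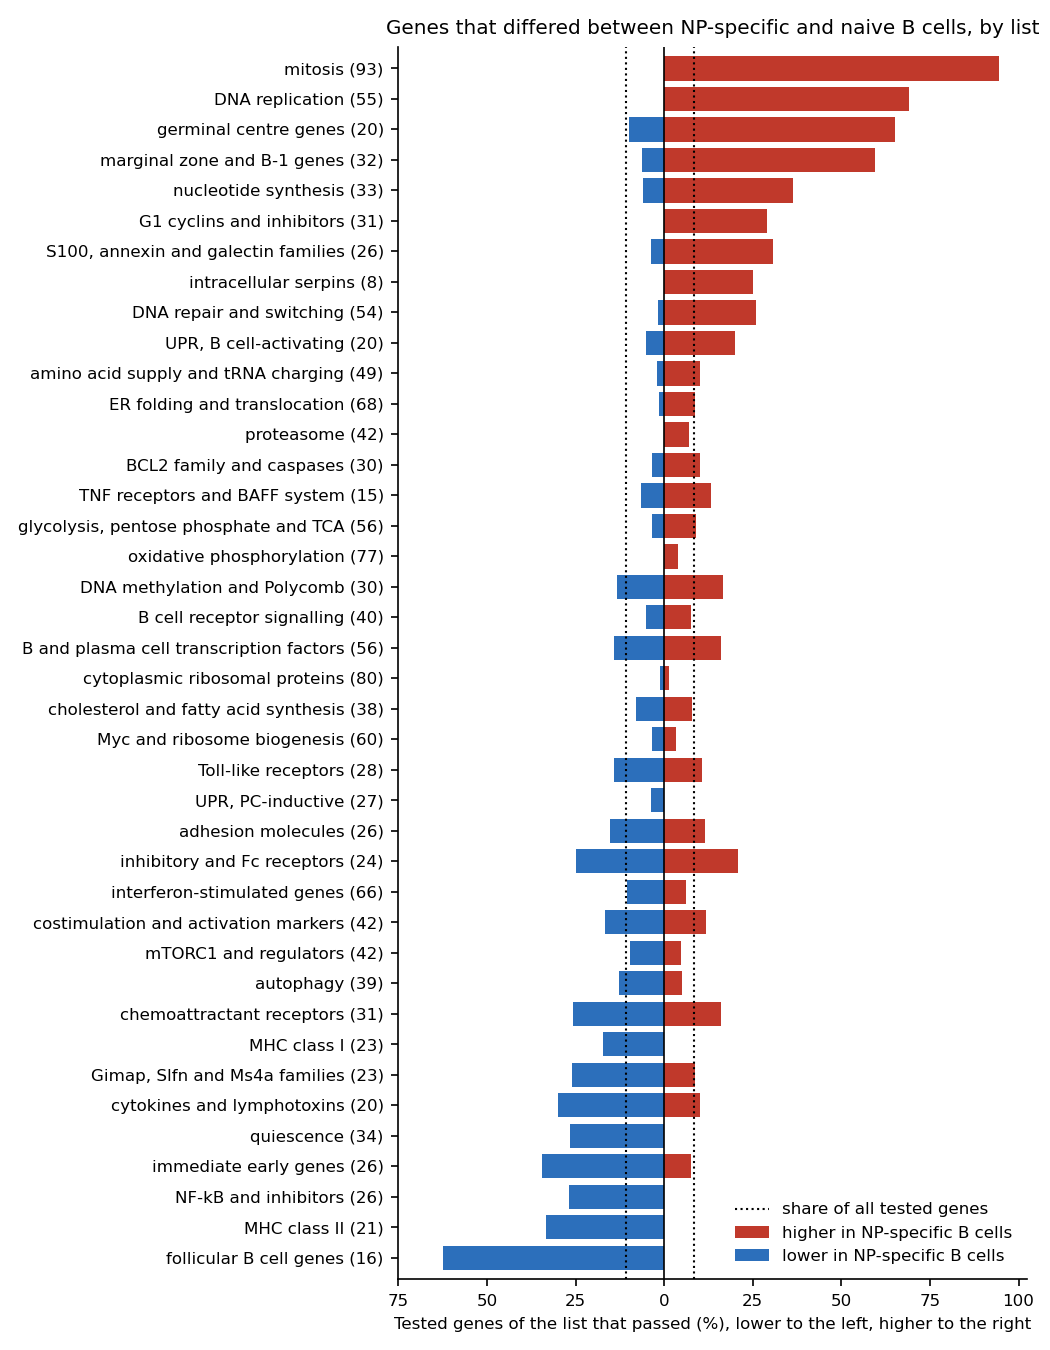
Share of the tested genes of each list (number tested in brackets) that rose (right, red) or fell (left, blue) in NP-specific against naive B cells, in percent. Dotted lines mark the shares over all tested genes, 8.52% for rises and 10.8% for falls. The list of mitosis extends to 94.6% on the right and that of follicular B cell genes to 62.5% on the left.

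The 12 largest rises included a transcriptional repressor and genes of germinal centre B cells. Zbtb32 (chr7:30589681-30598909, mm10), a transcriptional repressor of the BTB zinc finger family, rose from 2.73, 2.09 and 3.47 TPM to 329.9, 300.3 and 316 TPM, a log2 change of 6.60 ± 0.19 (adjusted p = 2.2e-08). Gcsam (chr16:45610380-45622867), an adaptor of germinal centre B cells that limits their motility, went from 0.568, 0.159 and 0.148 TPM to 56.7, 31.5 and 15.2 TPM. Its NP-specific libraries were widely spread, yet each lay far above the naive ones (log2 change 5.30 ± 0.76).

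Of the other genes among the 12 largest rises, Cxcr3 (chrX:101731535-101734269), a receptor for interferon-induced chemokines, S1pr2 (chr9:20962361-20976781), the sphingosine 1-phosphate receptor that holds cells in germinal centres, and Rgs13 (chr1:144138654-144177372), which dampens chemokine receptor signals, serve cell positioning and are described further on. Anxa2 (chr9:69453620-69491795), a calcium-dependent membrane-binding protein, was at 7.66, 8.31 and 7.78 TPM in naive and 308, 242 and 226 TPM in NP-specific libraries (log2 change 4.92 ± 0.29). Shcbp1 (chr8:4735976-4779567) and Ccnb2 (chr9:70407692-70421547), the latter a mitotic cyclin, rose by 4.88 and 4.71 on the log2 scale. Gstt1 (chr10:75783813-75798584), a glutathione transferase, was at 0.580, 0 and 0 TPM and at 15.5, 13.9 and 22 TPM, so 2 naive libraries had none. The histone gene Hist1h2ao (chr13:21810465-21810944) and Hbb-bh1 (chr7:103841637-103843164), an embryonic globin gene, rose by 4.87 and 6.12. Both belong to families of similar genes that may share reads, so their values are uncertain. The erythroid markers summed to 15.8 to 18.7 TPM in naive and 18.7 to 30.3 TPM in NP-specific libraries, and none of the 4 that were tested passed.

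Among the 12 largest falls were surface and signalling genes of the resting B cell. Icosl (chr10:78069302-78083913), the ligand through which B cells engage ICOS on helper T cells, fell from 127, 136 and 123 TPM to 12.2, 9.09 and 8.55 TPM (log2 change -3.66 ± 0.15, adjusted p = 2.1e-07). Zfp318 (chr17:46383731-46420920), which is needed for the long transcript that yields IgD, fell from 17.1, 23.1 and 23 TPM to 1.73, 1.65 and 0.402 TPM. All 3 NP-specific libraries lay below all 3 naive libraries, and its log2 change was -3.72 ± 0.33. This fall stands beside the fall in Ighd, on which the cells were sorted. Mapk12 (chr15:89130584-89140703), a stress-activated kinase, fell by 53.6-fold from 11.3 ± 1.67 to 0.210 ± 0.0905 TPM, and Tsc22d1 (chr14:76414961-76507765), a transcriptional regulator, by 18.1-fold from 20.8 ± 0.999 to 1.15 ± 0.955 TPM. Crisp3 (chr17:40221777-40242288), Fam101b and Tmem108 (chr9:103482947-103761837) changed by -3.79, -3.61 and -3.28 on the log2 scale.

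The other 5 of the 12 largest falls differed between the deposited tables or within the NP-specific group. Nav2 (chr7:48908716-49610090) was at 95.7, 96.1 and 95.9 TPM and 4.46, 4.26 and 3.69 TPM in the table without immunoglobulin genes, but at 5.91, 4.77 and 5.28 TPM and at 3.03, 2.82 and 2.12 TPM in the full table, where its fall of 0.85 on the log2 scale was under 2-fold. Gm17472 (chr6:42980690-42981150) and Gm20730 (chr6:43081518-43082097) changed by -4.11 and -3.27 in the first table, and in the full table the former was at most 0.752 TPM and the latter was listed at 0 in all 6 libraries. Neither passed without NP-specific replicate 2, nor did the former without replicate 1, and the origin of the reads given to these 3 genes in the first table, which may include immunoglobulin reads, was not tested. The pseudogene Eif4a-ps4 (chr1:60703932-60705149) was at 46.1, 53.7 and 47.1 TPM and at 0, 22.3 and 0 TPM, and Gm9769 was at 39.7, 36.5 and 46.4 TPM and at 0, 25.1 and 0 TPM. For both, NP-specific replicate 2 was the only library of its group above 0, and without it the log2 changes of Eif4a-ps4 and Gm9769 were -6.64 and -6.38 against -4.80 and -4.48.

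**Figure D2:**
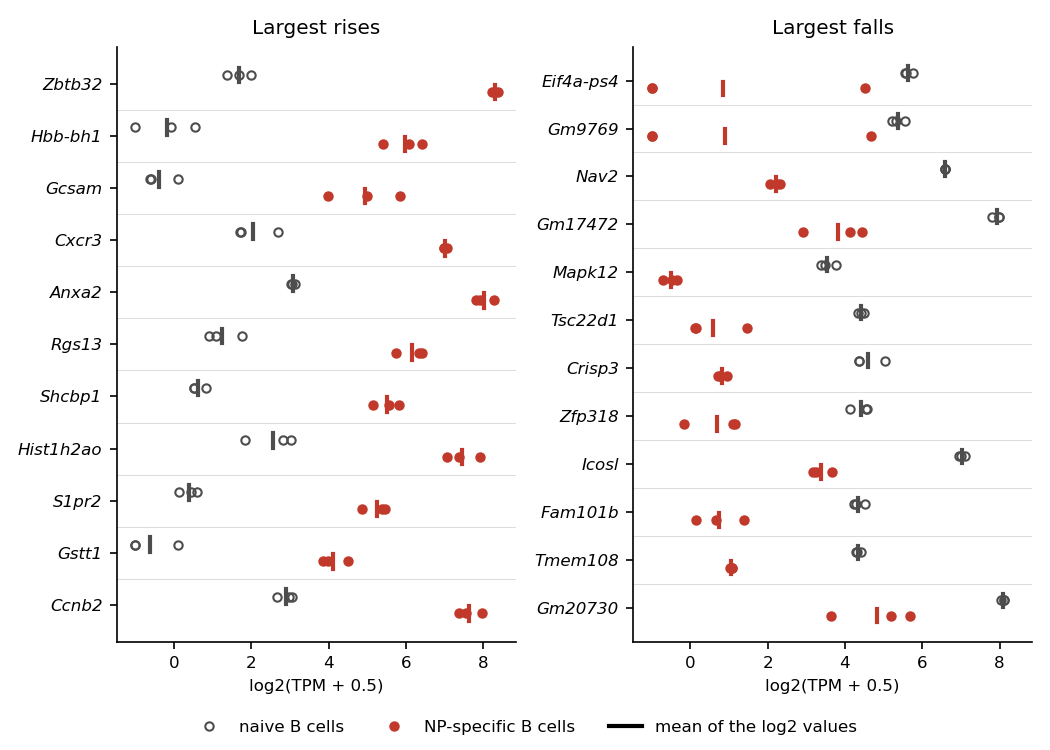
Level of 11 of the 12 genes with the largest rises and of the 12 with the largest falls, as log2(TPM + 0.5), in each naive (open grey) and NP-specific (filled red) B cell library, with vertical bars at the mean of the log2 values of each group. The groups do not overlap for any of these 23 genes, since the largest changes were chosen only among such genes. Replicate 2 is the single high NP-specific point of Eif4a-ps4 and Gm9769.

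Genes of mitosis rose more often than those of any other of the 40 lists. Of 93 tested genes of this list, 88 rose and none fell, against 8.52% and 10.8% of all tested genes, and their median change was 2.84 against -0.15. Without NP-specific replicate 2, 88 rose. Ccnb2, the cyclin named above, was at 5.86, 7.34 and 7.78 TPM in naive and at 249, 164 and 186 TPM in NP-specific libraries. Birc5, the survivin subunit of the chromosomal passenger complex, was at 9.39, 14.1 and 12.9 TPM and at 362, 243 and 311 TPM (log2 change 4.58 ± 0.22). Both genes were high in all NP-specific libraries, with no overlap. Plk1, the kinase that drives entry into mitosis and spindle assembly, rose 22.4-fold, and Cdca3, which helps to release mitotic entry, rose 20.3-fold. Mki67, the proliferation antigen of dividing cells, was at 1.58, 2.09 and 3.07 TPM and at 50.1, 47 and 51.9 TPM (log2 change 4.21 ± 0.27, adjusted p = 2e-06). The tested genes that did not pass included Tuba1b, a tubulin (from 341 ± 19 to 540.3 ± 46 TPM), the separase inhibitor Pttg1 (from 92 ± 5.83 to 74 ± 9.999 TPM) and the phosphatase Cdc25b (from 101 ± 9.96 to 71.8 ± 5.35 TPM). In bulk samples, a larger share of dividing cells and more transcript per dividing cell cannot be told apart.

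Genes of the replication machinery rose as well. Of 55 tested genes of DNA replication 38 rose and none fell, against the same shares of all tested genes (1 fell without NP-specific replicate 1), with a median change of 1.45. Cdc6, which loads the replicative helicase at origins, was at 2.81, 1.66 and 2.41 TPM and at 42.7, 28 and 41.7 TPM, with no overlap (log2 change 3.75 ± 0.28). Chaf1a, a subunit of the chaperone that places histones behind the fork, rose from 2.39 ± 0.565 to 26.4 ± 4.41 TPM. Gins2 and Cdc45, parts of the active helicase, rose 9.39-fold and 8.88-fold. The single-strand binding subunits Rpa1 (from 119 ± 5.61 to 165 ± 40.2 TPM) and Rpa2 (from 53.8 ± 5.97 to 87.6 ± 14.9 TPM) and the polymerase subunit Pold1 (from 164 ± 11.3 to 101 ± 19.5 TPM) did not pass. Of 33 tested genes of nucleotide synthesis, 12 rose and 2 fell, against 8.52% and 10.8% of all tested genes. Rrm2, the regulated subunit of ribonucleotide reductase, was at 16.5, 15.4 and 18.9 TPM and at 367, 233 and 322 TPM (log2 change 4.11 ± 0.24), and Tyms, the thymidylate synthase, rose 5.43-fold. The 2 that fell were Impdh1 (log2 change -1.51 ± 0.19), an isoform of the enzyme that commits purines to guanine nucleotides, and Ctps2 (log2 change -1.10 ± 0.10), a cytidine triphosphate synthase whose call was lost under median-of-ratios scaling. Impdh2, the other isoform, went from 116 ± 12.9 to 134 ± 1.84 TPM and did not pass.

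Promoter stretches of members that rose are shown because cell cycle promoters are known to share short elements. They are the 150 bases before the start of the gene on its own strand (RefSeq, GRCm38.p6, the same assembly as mm10, all on the minus strand), for Cdk1 at chr10:69352913-69353062, Ccnb2 at chr9:70421555-70421704 and Mcm6 at chr1:128359706-128359855, with H2-Aa of the class II genes, which fell, at chr17:34287824-34287973 for contrast. Capitals mark TTTGAA, a form of the cell cycle homology region, CCAAT or its reverse complement ATTGG, and TTTGGCGC, an E2F motif.
Cdk1: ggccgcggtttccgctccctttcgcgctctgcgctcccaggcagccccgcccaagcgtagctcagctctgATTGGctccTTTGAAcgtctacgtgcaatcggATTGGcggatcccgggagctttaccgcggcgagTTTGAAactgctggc
Ccnb2: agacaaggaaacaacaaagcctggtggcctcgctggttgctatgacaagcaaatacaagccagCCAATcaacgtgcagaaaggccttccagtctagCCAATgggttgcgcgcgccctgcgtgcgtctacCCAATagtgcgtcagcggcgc
Mcm6: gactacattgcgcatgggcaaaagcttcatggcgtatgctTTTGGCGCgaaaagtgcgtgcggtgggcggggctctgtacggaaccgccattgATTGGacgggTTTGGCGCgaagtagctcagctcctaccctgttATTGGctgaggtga
H2-Aa: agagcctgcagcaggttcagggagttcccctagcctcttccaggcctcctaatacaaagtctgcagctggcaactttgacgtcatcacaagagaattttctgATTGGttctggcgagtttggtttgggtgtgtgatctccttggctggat
In Cdk1 the letters TTTGAA stood 71 and 15 bases before the start, and in Mcm6 TTTGGCGC stood 110 and 47 bases before it. Over windows of 300 bases and both strands, TTTGAA was found in 50 of the 77 mitosis genes with a promoter in the table (64.9%), against 14.6% of 8531 tested genes and 20.2% of all 27025 genes with one. TTTCCCGC or TTTGGCGC was found in 15 of 43 replication genes (34.9%), against 3.49% of tested and 1.80% of all genes. CCAAT was found in 70.1% of mitosis, 60.5% of replication and 86.7% of 15 class II genes, against 44.0% of tested and 41.1% of all genes. It was found in 3 of 12 follicular and 2 of 12 germinal centre genes with a promoter in the table. A match of letters is not a bound site.

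Regulators of entry into the cycle moved less uniformly. Of 31 tested G1 cyclins, E2F factors and inhibitors 9 rose and none fell, against 8.52% and 10.8% of all tested genes. Ccne2, an E-type cyclin of S phase entry, was at 2.40, 2.32 and 2.92 TPM and at 48.1, 20.9 and 39.4 TPM (log2 change 3.50 ± 0.39), and Ccne1 rose from 10.3 ± 1.41 to 45.6 ± 3.57 TPM. Mybl1 and Mybl2, Myb family factors, rose 13.1-fold and 6.35-fold. Tfdp1, the partner of E2F factors, rose from 1.62 ± 1.47 to 20.3 ± 9.58 TPM, a call that was lost on the authors' own log2 values. Cdk4 (from 238 ± 8.01 to 483 ± 65.8 TPM) and Ccnd3 (from 113 ± 9.33 to 201 ± 44.9 TPM), a G1 kinase and its D-type cyclin, fell short of the 2-fold limit on the log2 scale. In the opposite direction, 9 of 34 tested genes tied to quiescence fell and none rose, against 10.8% and 8.52%, with a median change of -0.63. Without NP-specific replicate 2, 2 of the 34 rose, and 1 rose without NP-specific replicate 1 or naive replicate 3. Txnip, which restrains glucose uptake, fell from 204, 246 and 254 TPM to 45.1, 78.6 and 38.8 TPM (log2 change -2.18 ± 0.21). Tsc22d3, the glucocorticoid-induced leucine zipper, fell from 372 ± 42.9 to 85.9 ± 15.3 TPM, and the histone demethylase Kdm5b from 18.9 ± 1.84 to 6.37 ± 2.73 TPM. For these 3 genes the groups did not overlap. Foxp1 (from 473 ± 25.9 to 289.8 ± 15.4 TPM) and Btg1 (from 274 ± 62.4 to 192 ± 25.4 TPM), both known to favour rest, did not pass.

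**Figure D3:**
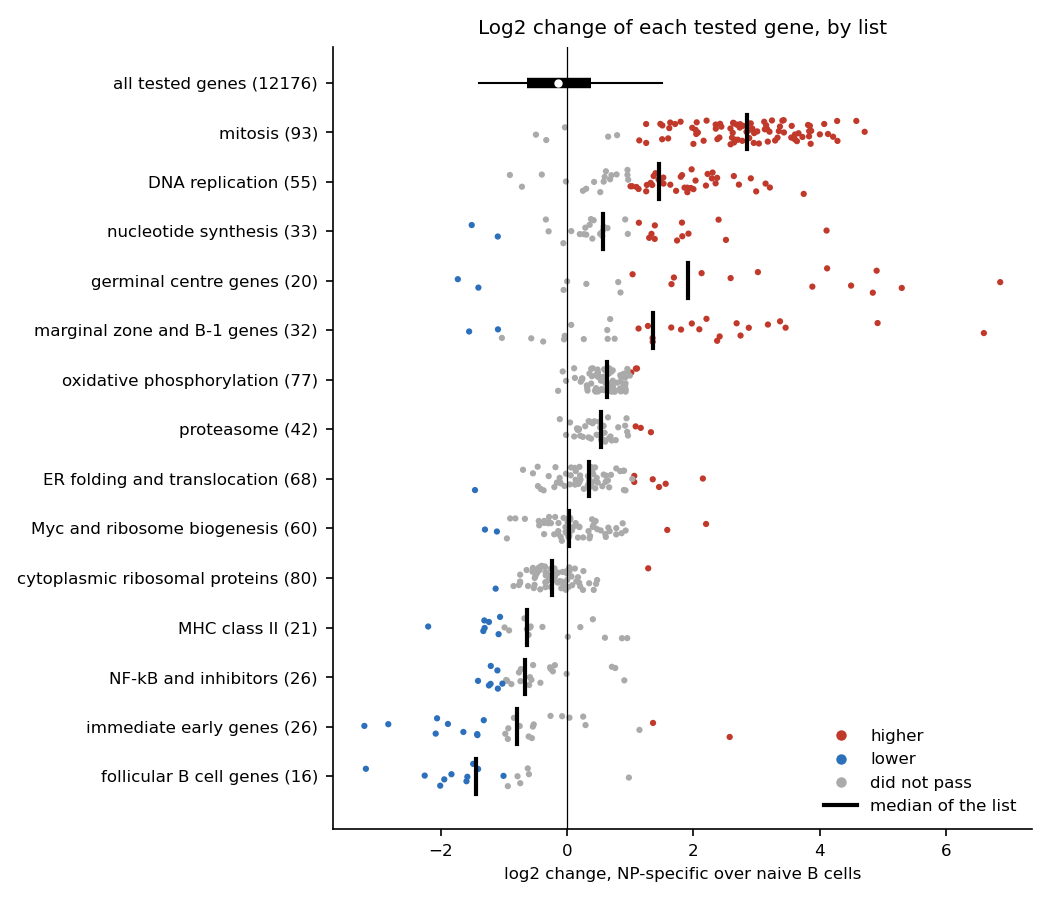
Log2 change of each tested gene (points, number in brackets) in 14 lists, NP-specific over naive B cells, with the list's median as a black bar. Red points rose, blue points fell and grey points did not pass. The bar at the top spans the 5th to 95th percentile of all 12176 genes, with the quartiles (-0.63 and 0.38) as the ends of the thick part. The median lies at 2.84 for mitosis and at -1.45 for follicular B cell genes, and oxidative phosphorylation genes gather between 0 and 1.

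Genes known from germinal centre B cells rose in 13 of 20 tested cases and fell in 2, against 8.52% and 10.8% of all tested genes. Besides Gcsam, Nuggc, a nuclear GTPase of germinal centre cells, was at 0.333, 0.848 and 0.464 TPM and at 31.8, 16.9 and 22.3 TPM (log2 change 4.50 ± 0.38). Mef2b, a transcription factor of germinal centre B cells, was at 6.29, 5.98 and 3.70 TPM and at 143, 64.8 and 105 TPM (log2 change 4.12 ± 0.38). In both genes every NP-specific library was above every naive one, and replicate 2 was the lowest of the 3. Rassf6, a Ras association domain protein, rose from 1.19 ± 1.002 to 21.9 ± 4.04 TPM, and Fas, the death receptor of activated and germinal centre B cells, rose from 9.24 ± 0.736 to 42.9 ± 8.10 TPM. The 2 that fell were Bcl6, the repressor that directs the germinal centre programme, and the receptor of the helper T cell cytokine interleukin 21. Bcl6 was at 44.4, 41.2 and 50.1 TPM in naive and at 17.4, 14.7 and 18.6 TPM in NP-specific libraries, and Il21r at 171, 167 and 179 TPM and at 60.9, 49.5 and 46.3 TPM. Neither gene overlapped between groups, with log2 changes of -1.41 ± 0.16 and -1.73 ± 0.13. The activation marker Cd83 (from 374 ± 13.9 to 389 ± 121 TPM) and Lmo2 (from 217 ± 13.1 to 211 ± 21.6 TPM), a transcriptional cofactor of germinal centre cells, did not pass.

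Genes known from marginal zone and B-1 cells rose in 19 of 32 cases, with 2 that fell, against 8.52% and 10.8% of all tested genes, and a median change of 1.35. Cd36, a scavenger receptor for lipids, was at 12.5, 17.7 and 18.3 TPM and at 209, 167 and 172 TPM (log2 change 3.46 ± 0.19). S100a6, a calcium-binding protein, was at 12.9, 9.79 and 12.1 TPM and at 124, 125 and 126 TPM (log2 change 3.37 ± 0.35). Neither gene overlapped between groups. Bhlhe41, a repressor tied to B-1 cells, rose from 9.89 ± 6.34 to 86.5 ± 23.1 TPM, with naive replicate 3 at 17.2 TPM above the other naive libraries. Itgam, the integrin chain CD11b of B-1 cells, rose from 2.31 ± 0.363 to 14.6 ± 2.06 TPM, and Fcrl5, an inhibitory receptor of marginal zone and B-1 cells, from 27.4 ± 1.72 to 121 ± 19.4 TPM. Cr2, the complement receptor CD21 that is high on marginal zone cells, went the other way. It was at 303, 350.3 and 323 TPM and at 143, 177 and 141 TPM (log2 change -1.10 ± 0.12), a call lost under median-of-ratios scaling, and Car2, a carbonic anhydrase, fell from 18.6 ± 0.924 to 6.14 ± 1.23 TPM. A list of S100, annexin, galectin and Crip genes with a few cytoskeletal genes overlaps with this one, and 8 of its 26 tested genes rose and 1 fell, against 8.52% and 10.8% of all tested genes. The rises included S100a4 (from 0.975 ± 0.333 to 11.5 ± 5.75 TPM) and the galectin Lgals1 (from 27.5 ± 2.23 to 182 ± 26.6 TPM). The gene that fell, Crip3, a LIM domain protein, was at 5.89, 8.44 and 9.05 TPM in naive and at 0 in all NP-specific libraries. Taking 3 reads per library as the limit that a count of 0 allows, it was at least 42.8-fold lower.

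Follicular B cell genes fell in 10 of 16 cases and rose in none, against 10.8% and 8.52% of all tested genes. At an adjusted p under 0.05 whatever the fold, 15 of the 16 were lower, against 25.3% of all tested genes. Without NP-specific replicate 1 or 2 or naive replicate 3, 1 rose. Their median change was -1.45. Fcer2a, the low-affinity IgE receptor CD23 that marks follicular cells, was at 796, 856 and 822 TPM and at 189, 225 and 204 TPM (log2 change -2.01 ± 0.10, adjusted p = 5.5e-07). Faim3, which encodes the Fc receptor for IgM, was at 1524, 1558 and 1548 TPM and at 159, 182 and 170.2 TPM (log2 change -3.19 ± 0.16). Both were separated from the naive libraries without overlap. Satb1, a chromatin organizer, fell from 41.5 ± 0.710 to 9.16 ± 5.24 TPM, and Cd55, which restrains complement, from 426 ± 48.5 to 120.0 ± 10.4 TPM. Klf2, a factor that maintains trafficking receptors in resting lymphocytes, was the only one higher at any fold, at 41.4, 38 and 44.4 TPM and 78.4, 58 and 122 TPM, and fell short of the 2-fold limit on the log2 scale.

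Receptors that position B cells changed in both directions. Of 31 tested chemoattractant receptors and regulators, 5 rose and 8 fell, against 8.52% and 10.8% of all tested genes. Across the alternatives 5 to 8 of them rose and 7 to 11 fell. Their median change of -0.08 turned to 0.03 under median-of-ratios scaling. Cxcr3 was at 2.83, 5.95 and 2.79 TPM and at 133, 125 and 126 TPM (log2 change 4.94 ± 0.41). S1pr2 was at 1.003, 0.588 and 0.855 TPM and at 41.3, 28.6 and 43.6 TPM (log2 change 4.84 ± 0.31), and Rgs13 at 1.64, 1.36 and 2.89 TPM and at 80.4, 53.4 and 84.6 TPM (log2 change 4.90 ± 0.33). These 3 genes were low in every naive and high in every NP-specific library. Gpr34, a lysophosphatidylserine receptor, rose from 1.63 ± 0.253 to 49.1 ± 10.03 TPM, and S1pr3, a sphingosine 1-phosphate receptor of marginal zone cells, from 11.3 ± 1.09 to 61.3 ± 2.49 TPM. Ccr7, the receptor that draws cells to T cell zones, was at 329.5, 272 and 306 TPM and at 86.1, 76.2 and 73.6 TPM (log2 change -1.95 ± 0.12). Cxcr5, the receptor that draws cells into follicles, was at 232, 244 and 254 TPM and at 87.4, 89 and 84.4 TPM (log2 change -1.49 ± 0.11). Neither overlapped between groups, although on the authors' log2 values Cxcr5 did not pass. Gpr174 and P2ry10, which sense lysophosphatidylserine, fell by 3.19-fold and 2.86-fold. Cxcr4 changed by -1.19 on the log2 scale, a call lost without NP-specific replicate 2. S1pr1, the receptor by which lymphocytes leave lymphoid tissue, went from 268 ± 20.4 to 197 ± 19.4 TPM and did not pass.

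Of 26 tested adhesion molecules 3 rose and 4 fell, against 8.52% and 10.8% of all tested genes. The integrin chain Itgb1 was at 20.6, 17.5 and 19.6 TPM and at 113, 106 and 100.2 TPM (log2 change 2.43 ± 0.12), and Cdh17, a cadherin, rose from 8.90 ± 1.42 to 55.1 ± 3.26 TPM. Icam2, a ligand of LFA-1, was at 231, 233 and 232 TPM and at 73.2, 92.1 and 90.5 TPM (log2 change -1.46 ± 0.10), and Itga6, a laminin-binding integrin chain, fell from 21.3 ± 6.04 to 8.58 ± 3.25 TPM. None of these 4 genes overlapped between groups.

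**Figure D4:**
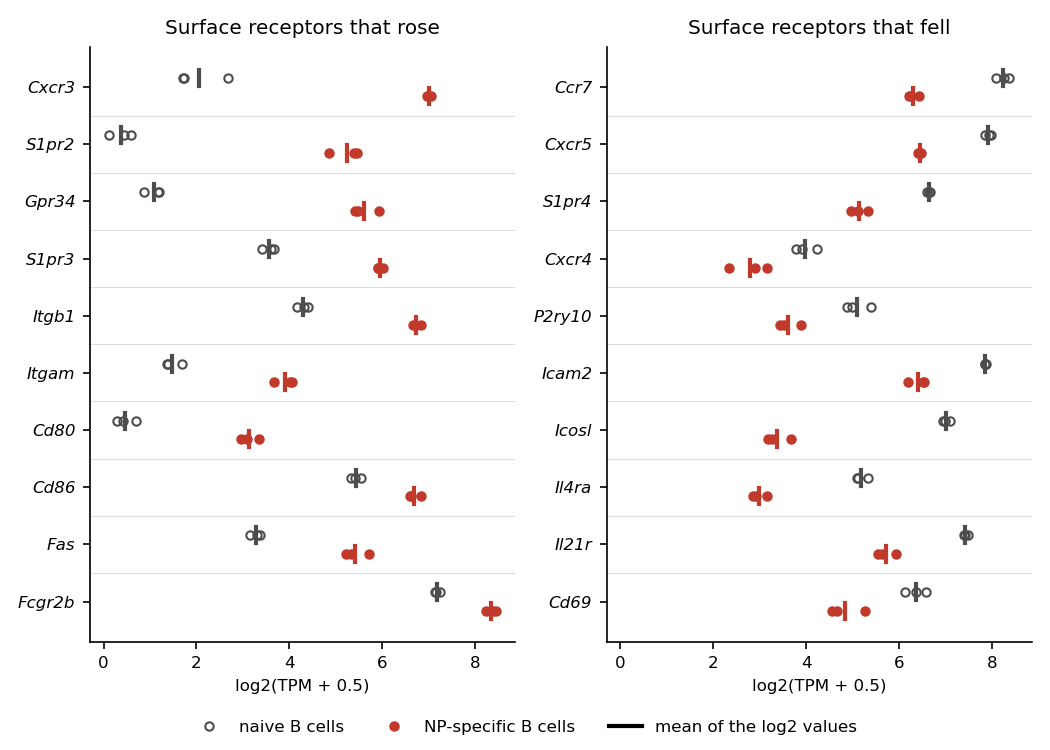
Level of 20 surface receptors and ligands as log2(TPM + 0.5) in each naive (open grey) and NP-specific (filled red) B cell library, with bars at the mean of the log2 values. The 10 genes on the left rose, and the 10 on the right fell. The groups do not overlap for any of the 20.

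Components of B cell receptor signalling rose or fell by over 2-fold no more often than all tested genes. Of 40 tested genes 3 rose and 2 fell, against 8.52% and 10.8% of all tested genes, and the median change was -0.25. Whatever the fold, 15 were lower and 6 higher at an adjusted p under 0.05, against 25.3% and 19.9%. Without NP-specific replicate 2, 1 fell. The receptor chains Cd79a and Cd79b went from 3546 ± 165 to 2271 ± 87.6 TPM and from 2898 ± 113 to 2128 ± 105 TPM. Both were lower without overlap but under 2-fold, and did not pass. Grb2, an adaptor that joins receptors to Ras, was at 41, 26.3 and 51.4 TPM and at 351, 139 and 307 TPM (log2 change 2.66 ± 0.36). Prkcb, the protein kinase C of the NF-kB branch, was at 37.8, 36.6 and 36.2 TPM and at 388, 55.5 and 205 TPM (log2 change 2.13 ± 0.60). In both genes all NP-specific libraries were above the naive ones, but replicate 2 was far below replicates 1 and 3. Pik3cg, a phosphoinositide 3-kinase, and Itpkb, an inositol phosphate kinase, fell by 2.32-fold and 2.13-fold. The call of Itpkb was lost without NP-specific replicate 2, without naive replicate 2 and under median-of-ratios scaling. Of 24 inhibitory and Fc receptors, 5 rose and 6 fell, against 8.52% and 10.8% of all tested genes, and 3 rose without NP-specific replicate 2. Fcgr2b, the inhibitory IgG receptor, rose from 145 ± 5.87 to 328 ± 24.2 TPM (log2 change 1.16 ± 0.09, a call lost under quantile normalization) and Ptpn22, a phosphatase that tempers receptor signals, from 30.5 ± 3.11 to 99.1 ± 5.93 TPM. Btla, an inhibitory receptor, fell from 186 ± 12.6 to 72.5 ± 16.3 TPM. Cd22 (from 732 ± 49.4 to 509 ± 22 TPM) and the phosphatase Ptpn6 (from 1059 ± 33.6 to 679 ± 62.4 TPM) did not pass.

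Of 28 tested genes of Toll-like receptor signalling, 3 rose and 4 fell, close to the 8.52% and 10.8% of all tested genes, and 2 fell without NP-specific replicate 3. Whatever the fold, 12 were lower and 5 higher at an adjusted p under 0.05, against 25.3% and 19.9% of all tested genes. Tlr4, the receptor for LPS, was at 8.49, 11.2 and 14.3 TPM and at 9.06, 7.61 and 6.25 TPM. The groups overlapped and it did not pass (adjusted p = 0.072). Its accessory protein Ly96, or MD-2, rose from 16.7, 20.9 and 25.5 TPM to 45.8, 73.8 and 53.4 TPM (log2 change 1.41 ± 0.21). Tlr3, a sensor of double-stranded RNA, rose from 1.09 ± 0.207 to 7.94 ± 2.42 TPM, and Irak1, a kinase of the pathway, from 39.3 ± 8.85 to 96.5 ± 15.3 TPM. Its relative Irak2 fell from 63.3, 54.8 and 67.3 TPM to 21.7, 21.3 and 14.1 TPM (log2 change -1.71 ± 0.17). Neither Ly96 nor Irak2 overlapped between groups.

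NF-kB factors switch on survival and activation genes and are held back by their inhibitors. Of 26 tested genes of this list 7 fell and none rose, against 10.8% and 8.52% of all tested genes, and the median change was -0.67. Whatever the fold, 16 were lower and 2 higher at an adjusted p under 0.05, against 25.3% and 19.9% of all tested genes. Without NP-specific replicate 3, 1 rose. Birc3, an NF-kB target that restrains cell death, was at 231, 259 and 259 TPM and at 95.8, 105 and 83.1 TPM (log2 change -1.41 ± 0.11). Rel, an NF-kB subunit, fell from 36.1 ± 5.13 to 15.1 ± 2.002 TPM and Relb from 76.8 ± 6.40 to 33 ± 1.97 TPM. Immediate early genes, transcribed within minutes of stimulation, fell in 9 of 26 cases and rose in 2, against 10.8% and 8.52% of all tested genes. Nr4a1, the orphan receptor that reports antigen receptor signalling, was at 28.5, 23.7 and 27 TPM and at 3.85, 3.11 and 1.07 TPM (log2 change -3.21 ± 0.29). Egr3, a zinc finger factor of the same response, was at 5.20, 6.23 and 5.11 TPM and at 0.0772, 0.604 and 0.452 TPM, the last values resting on 3 to 23 estimated reads. Both were separated without overlap. Zfp36, which destabilizes cytokine transcripts, fell from 52.5 ± 4.87 to 12.9 ± 5.17 TPM. Fos (from 33.1 ± 3.99 to 39.9 ± 4.54 TPM) and Junb (from 262 ± 13.8 to 139.5 ± 31.3 TPM), AP-1 subunits, did not pass. Jund, which rose, was at 16, 12.2 and 17.7 TPM and at 171, 33.2 and 143 TPM, with NP-specific replicate 2 again the lowest of its group.

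Activation markers and costimulatory molecules rose in 5 and fell in 7 of 42 cases, close to the 8.52% and 10.8% of all tested genes. Whatever the fold, 12 were higher and 15 lower at an adjusted p under 0.05, against 19.9% and 25.3%. Cd80 and Cd86, the ligands of CD28, rose from 0.891 ± 0.199 to 8.31 ± 1.21 TPM and from 42.6 ± 3.31 to 102 ± 9.30 TPM, with log2 changes of 2.65 ± 0.26 and 1.24 ± 0.15. Cd69, an early activation marker that retains lymphocytes in tissue, was at 69.5, 81.7 and 95.5 TPM and at 37.9, 25 and 22.9 TPM (log2 change -1.54 ± 0.21). Il4ra, the interleukin 4 receptor chain, was at 34.2, 33.8 and 39.6 TPM and at 8.46, 7.10 and 6.79 TPM (log2 change -2.21 ± 0.19). For both, each NP-specific library was below each naive one. Cd40 (from 254 ± 14.6 to 157 ± 14.9 TPM) and the BAFF receptor Tnfrsf13c (from 405 ± 12.9 to 265 ± 16.4 TPM) did not pass. Tnfrsf17, the plasma cell receptor BCMA, went from 0.256 ± 0.231 to 10.4 ± 7.18 TPM, a rise of 3.68 ± 0.59 on the log2 scale, while Tnfrsf13b, or TACI, went from 348 ± 6.05 to 474 ± 33.3 TPM and did not pass. Among 20 tested cytokine genes 2 rose and 6 fell, against 8.52% and 10.8% of all tested genes. Leaving out any 1 naive library or NP-specific replicate 1 left 1 rise, that of Il10, since Vegfb, a growth factor, then lost its call. Il10, an anti-inflammatory cytokine that B-1 cells are known to make, was at 0.104, 0.199 and 0.351 TPM and at 3.94, 4.50 and 3.83 TPM (log2 change 2.68 ± 0.40). Il12a fell from 41.5 ± 0.318 to 12.4 ± 3.89 TPM, and Tgfb1 from 29 ± 1.12 to 9.81 ± 2.14 TPM.

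Class II molecules present peptides to helper T cells, and class I molecules to cytotoxic T cells. Of 21 tested class II genes 7 fell and none rose, against 10.8% and 8.52% of all tested genes, with a median change of -0.64. Counted at an adjusted p under 0.05 whatever the fold, 15 were lower and 3 higher, against 25.3% and 19.9% of all tested genes. Ciita, the coactivator that switches on class II genes, was at 186, 197 and 194 TPM and at 88.3, 79.5 and 78.1 TPM (log2 change -1.24 ± 0.09). H2-Aa, whose promoter is printed above, was at 6895, 7150.0 and 6464 TPM and at 3185, 3431 and 3272 TPM (log2 change -1.06 ± 0.07), a call lost under median-of-ratios scaling and quantile normalization. Both lay below the naive range in all NP-specific libraries. H2-Ob, a subunit of H2-O that curbs peptide loading, fell from 799 ± 33.2 to 324 ± 17.6 TPM. The abundant Cd74 (from 30129.6 ± 1484 to 18968 ± 322 TPM) and H2-Ab1 (from 12283 ± 713 to 7968 ± 752 TPM) were lower but under 2-fold. Of 23 class I genes 4 fell and none rose, against 10.8% and 8.52% of all tested genes, with 12 lower and 5 higher at any fold, against 25.3% and 19.9%. The largest fall was that of H2-Q4 (from 29.2 ± 1.65 to 8.05 ± 2.11 TPM), and H2-K1 also fell (from 2855 ± 69.3 to 1282 ± 138 TPM). The H2-Q genes are close copies of each other, so their values are uncertain. B2m (from 3322 ± 417 to 2057 ± 373 TPM) did not pass, and the immunoproteasome subunit Psmb8 (from 854 ± 35.4 to 1224 ± 76.5 TPM) also stayed under 2-fold.

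Of 56 tested regulators of B cell and plasma cell identity, 9 rose and 8 fell, against 8.52% and 10.8% of all tested genes. Id2, an inhibitor of E proteins, was at 7.63, 11.1 and 10.7 TPM and at 54.4, 57.2 and 54.7 TPM (log2 change 2.44 ± 0.43). Tbx21, or T-bet, rose from 5.89 ± 0.476 to 19.7 ± 5.83 TPM, Zbtb20, a factor of plasma cell and B-1 biology, from 53.1 ± 4.47 to 147 ± 8.80 TPM, and Batf, an AP-1 factor of activated lymphocytes, from 31.2 ± 3.11 to 78.4 ± 8.30 TPM. Lef1, a Wnt pathway factor, fell from 7.98 ± 1.61 to 1.37 ± 0.797 TPM. Irf4, a factor that rises with plasma cell differentiation, was at 22.8, 24.1 and 28.5 TPM and at 7.12, 14 and 12.2 TPM (log2 change -1.20 ± 0.27), a call lost without NP-specific replicate 1. Myc, the growth regulator, was at 72.3, 72.3 and 68.4 TPM and at 122, 109 and 99 TPM, higher at an adjusted p of 0.00333 with no overlap but under 2-fold. Irf8, a factor of B cell development, went from 479 ± 26.3 to 376 ± 36.2 TPM and did not pass.

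Among 54 genes of DNA repair and class switching, 14 rose and 1 fell, against 8.52% and 10.8% of all tested genes. Rad54l, a DNA translocase of homologous recombination, was at 4.30, 5.14 and 6.04 TPM and at 46.3, 25.5 and 28.2 TPM (log2 change 2.53 ± 0.28), and the related Rad54b rose 6.94-fold. The groups did not overlap for Rad54l. The end-joining factor Xrcc6 (from 42.1 ± 0.411 to 61.9 ± 7.24 TPM) and the base excision enzyme Apex1 (from 80.5 ± 8.82 to 130.3 ± 28.9 TPM) did not pass, and Smug1, a uracil glycosylase, fell from 7.75 ± 0.315 to 3.09 ± 0.233 TPM. In the list of DNA methylation and Polycomb genes, 5 of 30 rose and 4 fell, against 8.52% and 10.8% of all tested genes. Of the core subunits of Polycomb complex 2, Ezh2, its methyltransferase, was at 18.4, 17.5 and 26.1 TPM and at 77.2, 70.2 and 65.6 TPM (log2 change 1.76 ± 0.16). Eed rose from 33.3 ± 2.12 to 84.7 ± 24.8 TPM and Suz12 from 7.99 ± 1.18 to 18.1 ± 5.43 TPM. Rbbp7 rose from 163 ± 11.6 to 358 ± 55.5 TPM, a call lost under quantile normalization, while Rbbp4 went from 197 ± 39.99 to 255 ± 50.8 TPM and did not pass. The call of Suz12 was lost without NP-specific replicate 1 and without replicate 3. Ezh1, the alternative methyltransferase of resting cells, fell from 51 ± 3.97 to 24.6 ± 4.55 TPM, a call lost without NP-specific replicate 3 and under median-of-ratios scaling. Of the accessory subunits, Phf19 rose from 2.55 ± 0.552 to 18.6 ± 3.84 TPM and Phf1 fell from 44.4 ± 1.76 to 7.17 ± 1.31 TPM. The maintenance methyltransferase Dnmt1 went from 26.6 ± 1.01 to 53.6 ± 13.5 TPM and fell short of the 2-fold limit on the log2 scale.

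Energy metabolism showed many small differences. Of 77 tested nuclear genes of oxidative phosphorylation 3 rose by over 2-fold, against 8.52% of all, but 67 were higher at an adjusted p under 0.05, against 19.9% of all tested genes, and none were lower. The count of 3 was 8 without NP-specific replicate 2, 14 under median-of-ratios scaling, 5 on the authors' log2 values and 0 under quantile normalization. Their median change was 0.63, and across the alternatives it lay between 0.47 and 0.74. Ndufc1 and Ndufb8, subunits of complex I, rose from 298 ± 29 to 646 ± 47.5 TPM and from 383 ± 23.9 to 823 ± 79.6 TPM, calls that were lost under quantile normalization. The ATP synthase subunit Atp5b went from 1008 ± 41.2 to 1513 ± 125 TPM and the cytochrome oxidase subunit Cox4i1 from 699.7 ± 33.4 to 1221 ± 11.8 TPM, both under 2-fold. Of 56 genes of glycolysis, the pentose phosphate pathway and the citrate cycle, 5 rose and 2 fell, and 26 were higher at any fold. Over all tested genes 8.52% rose, 10.8% fell and 19.9% were higher at any fold. Without NP-specific replicate 2 the rises numbered 8, without replicate 3 they numbered 3, and without naive replicate 3 none fell. Across the alternatives 2 to 8 rose. Tpi1, a glycolytic isomerase, rose from 85.3 ± 4.72 to 218 ± 20.5 TPM, and Ldha, the lactate dehydrogenase subunit of dividing cells, was at 413, 433 and 445 TPM and at 1062, 865 and 961 TPM. It did not overlap between groups, but its call was lost under quantile normalization. Gapdh went from 490.1 ± 31.2 to 955 ± 95.2 TPM and did not pass the 2-fold limit.

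Of 49 genes of amino acid supply and tRNA charging 5 rose and 1 fell, against 8.52% and 10.8% of all tested genes, with 2 falls without NP-specific replicate 1 or 3 or naive replicate 2. Asns, the asparagine synthetase, was at 1.53, 0.600 and 1.99 TPM and at 14.5, 8.57 and 13.3 TPM (log2 change 2.79 ± 0.39), with no overlap. The cystine transporter Slc7a11 fell from 14.4 ± 1.999 to 4.99 ± 1.48 TPM. Of 42 genes of mTORC1 and its regulators, 2 rose and 4 fell, against 8.52% and 10.8% of all tested genes, and 4 rose without NP-specific replicate 2 and 1 without replicate 1. This list is not the hallmark set of mTORC1 signalling genes, for which the study reported strong enrichment in NP-specific B cells. Akt1, a kinase upstream of mTORC1, rose from 9.02 ± 0.958 to 23.1 ± 5.90 TPM. Of 38 genes of cholesterol and fatty acid synthesis 3 rose and 3 fell, against 8.52% and 10.8% of all tested genes, with 5 rises without NP-specific replicate 2 or without naive replicate 1. Fads1, a desaturase, and Sqle, an enzyme of sterol synthesis, rose from 0.753 ± 0.0558 to 5.47 ± 0.605 TPM and from 16.8 ± 2.70 to 44.3 ± 11.8 TPM. Abca1, which exports cholesterol, was at 18.4, 22 and 22.4 TPM and at 3.50, 4.88 and 3.58 TPM (log2 change -2.28 ± 0.19), and Mylip, which degrades the low-density lipoprotein receptor, fell from 68.2 ± 6.77 to 18.3 ± 0.565 TPM.

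In each list of protein synthesis and quality control most tested genes did not pass. Over all tested genes 19.3% differed. Of 80 cytoplasmic ribosomal protein genes 1 rose and 1 fell, against 8.52% and 10.8% of all tested genes, and the median change of -0.24 was close to that of all genes. None fell without NP-specific replicate 1 and 2 without replicate 2. Of 60 genes of Myc partners and ribosome biogenesis 2 rose and 2 fell, against 8.52% and 10.8% of all tested genes. The rises were those of the Myc antagonist Mxd3 (from 4.40 ± 0.685 to 22.2 ± 2.72 TPM) and Odc1, the first enzyme of polyamine synthesis (from 19.6 ± 4.001 to 60.2 ± 9.79 TPM). Their median of 0.03 turned to -0.02 under quantile normalization, and it was also below 0 without NP-specific replicate 1 and without 12 predicted gene models that fell together. Of 68 genes of protein folding and translocation in the endoplasmic reticulum 6 rose and 1 fell, against 8.52% and 10.8% of all tested genes, with 34 higher at any fold, against 19.9% of all tested genes. Derl3, which exports misfolded proteins, was at 9.97, 6.78 and 8.68 TPM and at 37.9, 37.9 and 42.1 TPM (log2 change 2.15 ± 0.16), and Prdx4, a peroxidase of the same compartment, rose from 32.2 ± 2.995 to 96.7 ± 7.44 TPM. Both were above the naive range in every NP-specific library. Hspa5, or BiP, went from 512 ± 37 to 585 ± 60.9 TPM and did not pass (adjusted p = 0.185), and Hyou1, another chaperone, fell from 23 ± 1.79 to 8.57 ± 3.46 TPM. In the study's own lists of unfolded protein response genes, which the study chose from long-lived plasma cells and follicular B cells and divided by their response in culture, 4 of 20 activating genes rose, including Cks1b, a cell cycle kinase subunit (from 26 ± 3.42 to 326 ± 45.4 TPM), and Mthfd2, a folate enzyme (from 12.9 ± 1.09 to 44.6 ± 4.68 TPM), and 1 fell, against 8.52% and 10.8%. Of 27 plasma cell-inductive genes none rose and 1 fell, against 8.52% and 10.8% of all tested genes, while 10 were higher and 5 lower at any fold, against 19.9% and 25.3%. Without NP-specific replicate 2 or naive replicate 3, 1 of these rose, and without naive replicate 2 or NP-specific replicate 1, 2 of the activating genes fell. By a test of the whole hallmark set of this response, the study reported strong enrichment in NP-specific B cells. It marked single genes at a lower fold limit than the 2-fold used here. Of 42 proteasome genes 3 rose by over 2-fold, against 8.52% of all, and 32 were higher at any fold, against 19.9% of all tested genes, with none lower, and 6 rose by over 2-fold without NP-specific replicate 2 and 2 to 7 across the alternatives. The assembly factor Pomp rose from 77.7 ± 1.56 to 177 ± 14.7 TPM.

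Interferons switch on genes that restrain viruses and growth. Of 66 tested interferon-stimulated genes 4 rose and 7 fell, shares below those of all tested genes. At an adjusted p under 0.05 whatever the fold, 10 were higher and 23 lower, against 19.9% and 25.3% of all tested genes, and their median change was -0.32. Mnda, of the interferon-inducible p200 family, rose from 0.294, 0.787 and 0.783 TPM to 12.4, 11.4 and 14.3 TPM (log2 change 3.57 ± 0.30). The Schlafen genes Slfn5 and Slfn8, tied to restraint of growth, fell from 18.9 ± 2.81 to 2.94 ± 2.30 TPM and from 34.8 ± 1.33 to 5.38 ± 2.36 TPM, and the related Slfn2 from 314 ± 22.9 to 133 ± 6.27 TPM. None of the 4 genes overlapped between groups. Of 23 tested Gimap, Slfn and Ms4a genes 2 rose and 6 fell, against 8.52% and 10.8%. In the Ms4a family, Ms4a7 rose from 2.41 ± 0.377 to 11 ± 0.461 TPM and Ms4a6c from 21.3 ± 2.92 to 59.4 ± 2.97 TPM, whereas Ms4a4a fell from 5.74 ± 0.374 to 2.11 ± 1.13 TPM and Ms4a6d from 17.5 ± 4.45 to 6.83 ± 1.85 TPM. The falls were lost without NP-specific replicate 1, that of Ms4a6d also without naive replicate 1, and the call of Ms4a4a and Ms4a6c on the authors' log2 values. Ms4a1, which encodes CD20, went from 864 ± 101 to 1277 ± 144 TPM and did not pass. None of the 8 tested Gimap genes, which serve lymphocyte survival, passed, with Gimap4 at 521 ± 30.1 and 742 ± 77.5 TPM and Gimap6 at 815 ± 13.8 and 597 ± 46.4 TPM.

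Of 30 BCL2 family and caspase genes 3 rose and 1 fell, near or below the shares of all tested genes. Without NP-specific replicate 3, 5 rose, and without NP-specific replicate 2 or naive replicate 3, 2 fell. Bid, which links death receptors to mitochondria, rose from 63.3 ± 4.19 to 153 ± 23.9 TPM, and Bmf, a BH3-only sensitizer, fell from 8.82 ± 0.489 to 3.52 ± 0.105 TPM. The survival gene Bcl2a1d rose from 58.4 ± 3.77 to 143 ± 17.2 TPM, but the Bcl2a1 genes are close copies and its value is uncertain. Of 39 autophagy genes 2 rose and 5 fell, against 8.52% and 10.8% of all tested genes, but Lamp1, a lysosomal membrane protein at 11.6, 12.9 and 10.9 TPM and at 102, 14.2 and 57.6 TPM, lost its call without any 1 naive library and without NP-specific replicate 1 or 3. Of the same 39 genes, 17 were lower and 4 higher at an adjusted p under 0.05 whatever the fold, against 25.3% and 19.9%. Optn, a receptor that delivers cargo to autophagosomes, was at 5.48, 6.27 and 5.17 TPM and at 30.7, 21.6 and 23.9 TPM (log2 change 2.05 ± 0.21), and Ambra1, a regulator of initiation, fell from 20.6 ± 1.30 to 8.22 ± 1.44 TPM. Of 8 serpins 2 rose, against 8.52% of all tested genes. Serpinf1 was at 0.534, 1.11 and 1.49 TPM and at 12.1, 8.26 and 7.78 TPM (log2 change 2.69 ± 0.52), and Serpinb6b at 2.97, 1.93 and 2.003 TPM and at 6.10, 6.52 and 3.86 TPM, a call lost in 8 alternatives, among them those without NP-specific replicate 1 or 2 or naive replicate 2 or 3.

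Markers of other cell types were examined beside these changes. Of the 8 T cell markers 3 were tested, and their list summed to 56.4 to 64.8 TPM in naive and 24.8 to 59.2 TPM in NP-specific libraries. The macrophage list went from 6.27 to 7.21 TPM to 52.2 to 69.1 TPM, nearly all of it Cd68, a lysosomal protein (from 3.98 ± 0.0898 to 57.6 ± 11.5 TPM), and no other of its genes reached the level needed for a test. C1qa, C1qb and C1qc, which define tissue macrophages, were at most at 0.611 TPM in the 6 libraries. The dendritic cell list summed to 7.48 to 8.01 and 21.1 to 23.5 TPM, where Flt3, a cytokine receptor also known from progenitors, rose from 2.16 ± 0.341 to 17.7 ± 1.80 TPM and the other 3 tested genes did not pass. Of 8 plasma cell markers 4 rose and 1 fell, against 8.52% and 10.8% of all tested genes. Those that rose were Slpi (from 1.03, 0.588 and 0.0660 TPM to 16.7, 25.3 and 9.36 TPM), Tnfrsf17, Derl3 and Fkbp11 (from 18.2 ± 3.49 to 50.7 ± 3.42 TPM). The 1 that fell was Sdc1 (log2 change -2.52). Xbp1, which directs the secretory apparatus, went from 119 ± 7.67 to 156 ± 12.9 TPM and did not pass. The part of such cells in the changes above was not tested.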

How the data were processed

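Per the labels and the study's methods, RNA of twice-sorted cells was made into cDNA by template switching, tagmented and quantified by the authors with kallisto on mm10 transcripts. They deposited TPM per gene with and without 322 immunoglobulin genes, and log2 values that the authors made from the TPM with voom in limma. The sample columns without a label numbered 0. From the TPM without immunoglobulin genes, limma 3.58.1 (R 4.3.3) fitted voom with an offset of 0.5 to 9 libraries in 3 groups, tested NP-specific against naive B cells with empirical Bayes moderation and adjusted p over 12176 genes by Benjamini-Hochberg. The fit was tested on simulated data. Estimated reads were recovered from the authors' log2 values. All lists were chosen with earlier results of these data known. The text names 27 landmark genes, the 12 largest rises and falls at 10 TPM or more whose groups do not overlap, up to 4 rises and 4 falls per list at 5 TPM or more, and 3 abundant members per list that did not pass, 338 genes in all, some of which are not reported here. Named after their values were seen were Suz12, Dnmt1, Slfn2, Fcgr2b, Batf, S1pr3, H2-Aa, P2ry10, Il10, Ccne1, Nuggc, Ciita, Fos, Rassf6, Zbtb20, Cdk1 and Mcm6. Coordinates are from GENCODE (GRCm38). 20 alternatives were tried, 19 of them planned.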

Additional observations from a re-analysis of the deposited data

How the results depend on the processing

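The count of 2352 genes stayed within 1.5 times of itself under 19 of the 20 alternatives, from 2011 with a pseudocount of 1 to 2641. With a mean of at least 10 TPM required, fewer genes were tested (7395) and 1211 differed, 662 higher and 549 lower. Leaving out 1 library at a time gave 2112 to 2641 genes, 955 to 1207 of them higher and 1117 to 1434 lower. The highest count came without NP-specific replicate 2, and 2216 of the 2352 genes were shared with it. With the replicate block 2394 genes differed, 2304 of them shared. The labels do not say that a number marks a mouse, and the numbers were treated as names only. Deviations of same-numbered libraries correlated at -0.01, 0.04 and 0.03 across genes, which does not show whether such libraries share a mouse. Median-of-ratios scaling gave 2264 genes (54.4% higher), quantile normalization 2182 (53.6% higher), the authors' log2 values 2316, and the table with immunoglobulin genes 2501. An alternative chosen after seeing the data, without 12 predicted gene models that fell together, gave 2438 (39.9% higher). Of the named genes 231 had passed, none of them changed direction in an alternative and 51 lost the call in at least 1. Leaving out 1 library moved 23 of 80 counts of rises or falls in a list by over 1.5 times, 20 of them counts of 3 or fewer genes. Median-of-ratios scaling moved 16 and quantile normalization 13 of the 80 as far. The cause was not tested. Genes near 0 TPM rest on a few reads per library, and 3 libraries per group limit the precision of every value.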

Other observations

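These groups of genes were chosen after their values were seen and are given as values. High mobility group proteins, which bend DNA or loosen nucleosomes, summed to 1079 to 1173 TPM in the naive and 2883 to 4277 TPM in the NP-specific libraries, and 6 of 9 tested genes rose and none fell, against 8.52% and 10.8% of all tested genes. Hmgb2, which is known from dividing cells, was at 39.6, 51.6 and 51.6 TPM and at 396, 348 and 447 TPM (log2 change 3.04 ± 0.15), and Hmgn3, a nucleosome-binding member, at 12.6, 17 and 14.5 TPM and at 149, 139.6 and 164 TPM (log2 change 3.32 ± 0.14). Every NP-specific library was above every naive one in both genes. The most abundant member, Hmgn2, rose from 359.5 ± 19.8 to 1632 ± 434 TPM, while Hmgn1 went from 207 ± 13.6 to 263 ± 51.8 TPM and did not pass.

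Enzymes of glutathione, thioredoxin and peroxide handling, which keep the cell's thiols reduced, rose in 14 of 39 tested cases and fell in 1, against 8.52% and 10.8% of all tested genes. Their sum was 3580 to 3713 TPM in naive and 6899 to 7969 TPM in NP-specific libraries. Prdx1, a peroxidase, was at 412, 407 and 401 TPM and at 1614, 1094 and 1299.5 TPM (log2 change 1.69 ± 0.12). Mgst2, a microsomal transferase, was at 35.1, 32.1 and 27.9 TPM and at 244, 191 and 226 TPM (log2 change 2.77 ± 0.15). For both genes the groups did not overlap. Sod1, the cytoplasmic superoxide dismutase, rose from 124 ± 13.4 to 477 ± 239 TPM, Txn1, or thioredoxin, from 101 ± 4.08 to 299 ± 28 TPM and Gclm, a subunit of the rate-limiting enzyme of glutathione synthesis, from 2.94 ± 1.17 to 24.7 ± 15.4 TPM. The single fall was that of Txnrd3, a thioredoxin reductase (from 6.40 ± 0.428 to 0.899 ± 1.02 TPM), whereas the reductases Txnrd1 (from 25.9 ± 2.05 to 29.6 ± 4.18 TPM) and Gsr (from 2.12 ± 0.783 to 2.77 ± 1.88 TPM) did not pass.

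The subunits of oxidative phosphorylation that mitochondrial DNA encodes had a median change of -0.33, against 0.63 for the 77 nuclear genes, and 2 of 12 tested fell, against 10.8% of all tested genes. Summed over the list the libraries overlapped, at 34184, 43225 and 49229 TPM in naive and 22294, 50868 and 40566 TPM in NP-specific B cells. NP-specific replicate 1 was the lowest and replicate 2 the highest of the 6. mt-Nd3, a complex I subunit, fell from 1153 ± 479 to 408 ± 211 TPM, and mt-Co1, a complex IV subunit, went from 4678 ± 764 to 4538 ± 1514 TPM. The nuclear and the mitochondrial values share their libraries, and the difference between both medians was not tested.

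A group of 12 predicted gene models, 9 of them near the start of the chromosome 9 sequence, all fell. They summed to 48864, 31747 and 34671 TPM in the naive and 5930, 6734 and 4398 TPM in the NP-specific libraries, or 3.36% to 5.17% and 0.462% to 0.709% of all TPM. Gm10800, the most abundant, was at 23169.6, 14979 and 16151 TPM and at 2684, 3130.3 and 1999 TPM (log2 change -2.81 ± 0.28). The 12 changes lay between -2.84 and -2.64. Their sequences were not examined and the origin of their reads was not tested, so the value of any 1 of them is uncertain. With the 12 left out, 972 genes rose and 1466 fell.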
